A study of Arabidopsis thaliana with 4 samples.

Results

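The SMC5/6 complex subunits are 10 genes of Arabidopsis thaliana, picked out of a table of 32399 genes by their gene codes. No measured value was used to pick them, although earlier results of these data were known. They are the ATPase genes SMC5 (AT5G15920), SMC6A (AT5G07660) and SMC6B (AT5G61460), the kleisin genes NSE4A (AT1G51130) and NSE4B (AT3G20760), NSE1 (AT5G21140), NSE3 (AT1G34770), the SUMO ligase gene HPY2 (AT3G15150), ASAP1 (AT2G28130) and SNI1 (AT4G18470). Each was followed through 8 RNA-seq libraries of dissected shoot apices, 2 biological replicates for each of 4 groups of Col-0 plants. The groups were nse4a-2_zeb and WT_zeb, which spent 24 h in liquid medium with 20 µM zebularine, and nse4a-2_ctrl and WT_ctrl, which spent 24 h in the same medium without it. All plants had grown for 9 days on solid medium without the drug, so the liquid culture is shared by drug and control groups. Zebularine is a cytidine analogue that is built into DNA and traps DNA methyltransferases there. The nse4a-2 mutation lies in one of the 10 genes, NSE4A, and its lesion is not described in the labels, so that a count over the whole gene does not check the genotype. How many plants went into a library is not stated there either.

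SMC complexes are rings of a pair of long coiled-coil ATPases whose heads are bridged by a kleisin protein. In SMC5/6 the ring is SMC5, SMC6 and the kleisin NSE4, with NSE1 and NSE3 bound to the kleisin, the SUMO ligase NSE2 (HPY2 in Arabidopsis) on the arm of SMC5, and a pair of further proteins, ASAP1 and SNI1 in Arabidopsis, that stand in the place of yeast Nse5 and Nse6. The complex helps to resolve joint DNA molecules between sister chromatids and to repair breaks by homologous recombination, and in shoot and root meristems its loss disturbs cell division.

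Total counts per library ran from 15360494 to 19811948. Of the shoot meristem markers, STM was read at 13.6 to 21.8 and CLV1 at 41.1 to 61.3 CPM (counts scaled to the library total), while WUS stood at 0 to 0.195 and CLV3 at 0 to 0.391 CPM, that is at or near 0. The summed level of 8 leaf photosynthesis markers was 18481 to 20210 CPM in nse4a-2_zeb, 16304 to 19006 in WT_zeb, 12952 to 14509 in nse4a-2_ctrl and 14124 to 16897 in WT_ctrl, with none of the 8 at 0. That of 10 shoot meristem markers was 136 to 138 CPM in nse4a-2_zeb, 115 to 121 in WT_zeb, 122 to 139 in nse4a-2_ctrl and 107 to 108 in WT_ctrl. Among them KNAT6 averaged 22.8, 12.5, 13.6 and 7.69 CPM and KNAT1 37.4, 29.1, 30.9 and 22.3 in the same order (scaled by the TMM method). The median log2 fold change of the 8 markers tested was −0.04 for zebularine in nse4a-2 and 0.23 in WT. For nse4a-2 against WT it was 0.06 with the drug and 0.29 without it. For 17 markers of G2 and mitosis it was 513 to 629 CPM in nse4a-2_zeb, 676 to 752 in WT_zeb, 941 to 979 in nse4a-2_ctrl and 1029 to 1123 in WT_ctrl. For 13 S-phase markers it was 1012 to 1046 CPM in nse4a-2_zeb, 950 to 975 in WT_zeb, 1099 to 1172 in nse4a-2_ctrl and 1099 to 1109 in WT_ctrl. Among the 13, TSO2 averaged 309 CPM in nse4a-2_zeb, 204 in WT_zeb, 251 in nse4a-2_ctrl and 174 in WT_ctrl (scaled by the TMM method). The median log2 fold change of the 13 for nse4a-2 against WT in zebularine was −0.20, although the sum was higher in nse4a-2_zeb than in WT_zeb. The 6 root markers summed to 43.8 to 45.4 CPM in nse4a-2_zeb, 55.2 to 56.4 in WT_zeb, 53.9 to 60.5 in nse4a-2_ctrl and 52.5 to 54.4 in WT_ctrl. Most of this sum was SCR, at means of 39.6, 54.3, 52.4 and 47 CPM in the same order (scaled by the TMM method). COBL9 went the other way at a low level, with means of 2.97, 0.125, 0.189 and 0.486 CPM. It rose with zebularine in nse4a-2 by 3.93 ± 0.62 log2 (SE; edgeR adjusted p = 0.00362). In whole apices, fewer cells of a type and less RNA per cell cannot be told apart. The part of these shifts in the results below was not tested.

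Per length, 9 of the 10 genes were expressed within a narrow band. On the scale of deposited FPKM, the mean over all 8 libraries was 13.2 ± 2.05 for HPY2, 12.5 ± 1.92 for SMC5, 12.2 ± 2.89 for NSE3, 8.91 ± 3.55 for NSE4A, 8.89 ± 0.31 for SMC6B, 7.47 ± 0.893 for ASAP1, 6.08 ± 1.17 for NSE1, 4.68 ± 1.09 for SNI1 and 4.13 ± 0.706 for SMC6A (SD, n = 8 libraries of 4 groups). The highest mean was 3.21 times the lowest. Each gene's range over the libraries overlapped with that of its neighbour in this order. Within single libraries part of the order was steady all the same, since SMC6B was above ASAP1, ASAP1 above NSE1 and NSE1 above SNI1 in 8 of 8 libraries. The top of the order was not steady: HPY2 was above SMC5 in 4 of 8 libraries and SMC5 above NSE3 in 4 of 8.

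**Figure D1:**
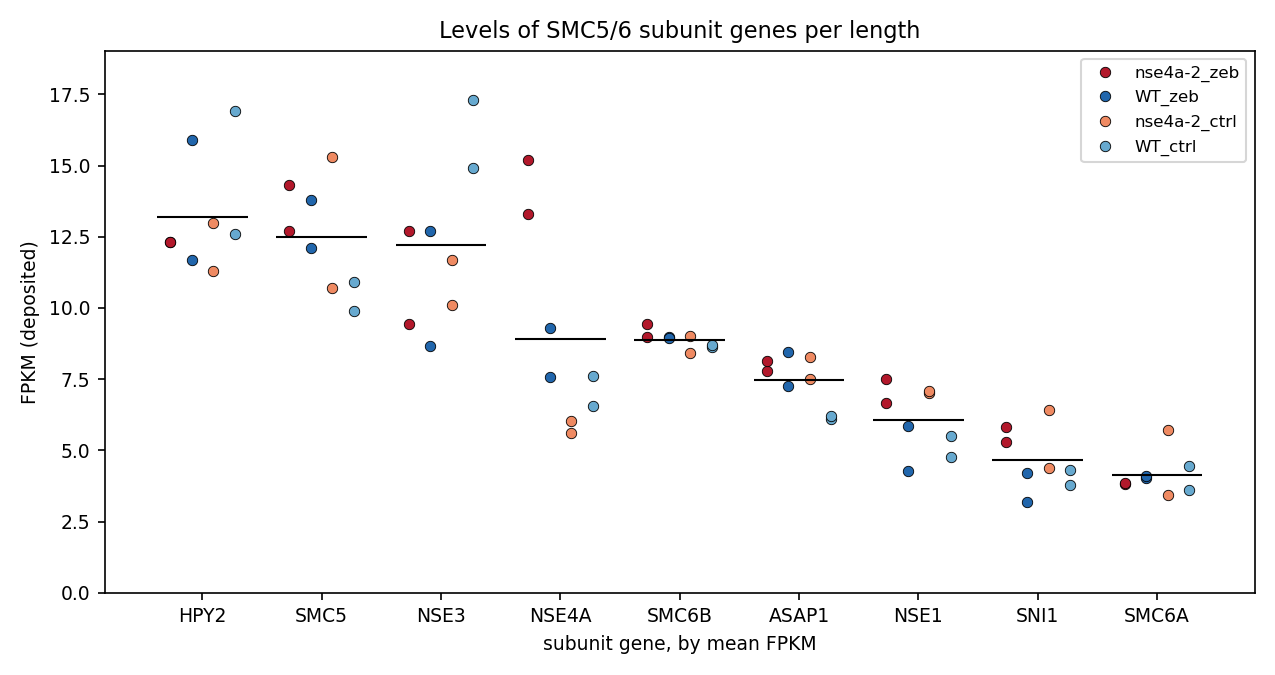
FPKM of the 9 subunit genes with reads (y axis, as deposited) in every library, by group, with a line at the mean of the 8 libraries. HPY2, SMC5 and NSE3 lie highest and SNI1 and SMC6A lowest, and the NSE4A points of nse4a-2_zeb, at 13.3 and 15.2 FPKM, lie apart from the rest of that gene's points at 5.62 to 9.28 FPKM.

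NSE4B was the exception. This second kleisin gene, a paralogue of NSE4A, had 0 counts in all 8 libraries, which together held 137477723 counts. A count of 0 allows up to 3 counts, which is 0.151 to 0.195 CPM in a single library and 0.0218 CPM over all of them. NSE4A had 1703 counts over the same libraries, at least 568-fold more than the 3 counts that a count of 0 allows for NSE4B. Their transcripts share no 100-base window, the length of the reads, in the RefSeq annotation of TAIR10.1, and the longest identical stretch is 26 bases. NSE4B did not pass the filter on low counts, and the tests below are of the other 9 genes, which had 79 to 793 counts in a library.

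NSE4A was the subunit gene that stood out. It reached 18.5 and 21.1 CPM in nse4a-2_zeb (CPM scaled by the TMM method, as in all that follows), 10.5 and 12.9 in WT_zeb, 8.4 and 7.79 in nse4a-2_ctrl, and 10.7 and 9.23 in WT_ctrl. Both nse4a-2_zeb libraries were above all 6 others, both nse4a-2_ctrl libraries were below all 6 others, and the WT_zeb and WT_ctrl libraries overlapped. How many of all genes place a group apart in this way was not counted. In the mutant NSE4A rose with zebularine 2.44-fold (95% interval 1.88 to 3.18), a log2 fold change of 1.29 ± 0.17 (SE; adjusted p = 0.00156 from edgeR's quasi-likelihood test, n = 2 libraries a group). In zebularine it was 1.69-fold higher in nse4a-2 than in WT (1.31 to 2.18), at 0.76 ± 0.16 log2 (edgeR adjusted p = 0.00999). These comparisons share the nse4a-2_zeb libraries and are not independent of each other. The second call was lost without replicate 2 of nse4a-2_zeb (0.66 log2, edgeR adjusted p = 0.0879) and without replicate 1 of WT_zeb (0.62 log2, edgeR adjusted p = 0.0669).

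The remaining NSE4A comparisons did not pass the test. Zebularine in WT gave a log2 fold change of 0.23 ± 0.17, with a 95% interval of −0.15 to 0.61 (edgeR adjusted p = 0.59). Without the drug, the difference between nse4a-2 and WT was −0.30 ± 0.17, with an interval of −0.69 to 0.09 (edgeR adjusted p = 0.407). The response of the mutant exceeded that of WT by 1.06 ± 0.24 log2, with an interval of 0.53 to 1.59, and missed the threshold over all genes (edgeR adjusted p = 0.0771). It passed when genes with low counts were kept in the table (1.05 log2, edgeR adjusted p = 0.0348). The authors' deposited table gives NSE4A a log2 fold change of 1.30 with an adjusted p of 0.001 for zebularine in nse4a-2, 0.25 with 0.666 in WT and −0.29 with 0.617 between the genotypes in control medium. Beside the rise in nse4a-2, 12 of 17 markers of G2 and mitosis fell and none rose, against 14.7% of all genes called. Of the S-phase markers 5 of 13 fell and none rose, and 4 of 8 leaf photosynthesis markers rose and none fell. The count for G2 and mitosis was 1 without replicate 2 of nse4a-2_zeb, and 6 or 7 without replicate 1 or 2 of nse4a-2_ctrl. That of the S-phase markers was 0 without replicate 2 of nse4a-2_zeb, and 2 without replicate 1 of nse4a-2_zeb or replicate 2 of nse4a-2_ctrl. In WT, where NSE4A was not called, zebularine moved these lists the same way. Median log2 fold changes in nse4a-2 and WT were −0.76 and −0.59 for G2 and mitosis and −0.38 and −0.31 for S phase. For leaf photosynthesis they were 0.62 and 0.47. In WT 3, 1 and 2 markers were called, against 2.3% of genes. These counts did not stay within 1.5 times in 10, 9 and 5 of 16 alternatives. A link to NSE4A was not tested. Between nse4a-2 and WT in zebularine, 3 of 17 markers of G2 and mitosis were lower, and 2 of 13 S-phase markers were higher and 3 lower, against 22% of genes. No leaf photosynthesis marker was called there by edgeR, DESeq2 or limma (0 at an unadjusted edgeR p below 0.05). Here the G2 and mitosis count was 0 without replicate 2 of nse4a-2_zeb, 1 without replicate 1 of WT_zeb and 6 with scaling by total counts. The S-phase count of 5 was 1 without either nse4a-2_zeb library, 3 or 2 without replicate 1 or 2 of WT_zeb, and 3 without either WT_ctrl library.

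Relative to the other subunits of its own library, which takes library scaling out of the value, NSE4A changed its place. The ratio of its FPKM to the median FPKM of the 8 others was 1.55 and 1.78 in nse4a-2_zeb, 0.867 and 1.16 in WT_zeb, 0.721 and 0.68 in nse4a-2_ctrl, and 1.03 and 0.881 in WT_ctrl. Its rank among the 9 was 2 and 1 in nse4a-2_zeb, 6 and 3 in WT_zeb, 8 and 8 in nse4a-2_ctrl, and 5 and 5 in WT_ctrl. Of the FPKM summed over the complex, NSE4A made up 16.2 and 17.5% in nse4a-2_zeb, 9.47 and 13% in WT_zeb, 8.03 and 7.39% in nse4a-2_ctrl, and 10.1 and 8.51% in WT_ctrl. Transcript counted at NSE4A was thus among the most abundant of the 9 in the mutant with the drug, and next to the least abundant in the mutant without it. As the lesion is not described, the values do not show whether this transcript is intact in nse4a-2. On the log2 scale the mean ratio differed by 1.25 between nse4a-2_zeb and nse4a-2_ctrl and by 0.72 between nse4a-2_zeb and WT_zeb.

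**Figure D2:**
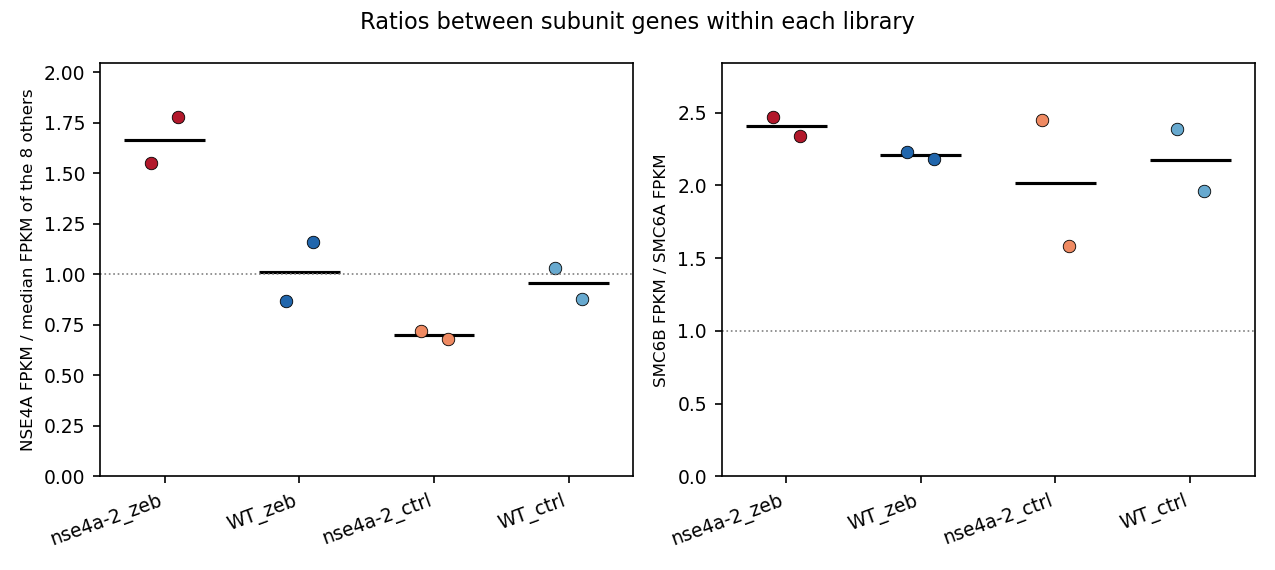
FPKM ratios in each library (points) with group means (lines) and a dotted line at 1, for NSE4A over the median of the 8 other subunits on the left and SMC6B over SMC6A on the right. NSE4A is at 1.55 and 1.78 in nse4a-2_zeb and at 0.68 and 0.721 in nse4a-2_ctrl, while SMC6B exceeds SMC6A in every library, at 1.58 to 2.47.

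The sequence upstream of NSE4A is shown because NSE4A is the gene that moved. The 250 bases before its annotated start, found by gene code in the RefSeq genome TAIR10.1 (the deposited counts were made on TAIR10), lie at chr1:18941720-18941969 on the minus strand. They were searched on both strands for 3 motifs: the SOG1 motif (CTT and AAG with 7 bases of any kind between them, bound by SOG1, the transcription factor of the plant DNA damage response), an E2F-type motif (TTTCCCGC, TTTCGCGC, TTTGCCGC or TTTGGCGC, of factors that act at the entry to S phase) and the core AACGG of the elements bound by MYB3R factors in G2 and mitosis. None of these letters occurs in the NSE4A window.
NSE4A: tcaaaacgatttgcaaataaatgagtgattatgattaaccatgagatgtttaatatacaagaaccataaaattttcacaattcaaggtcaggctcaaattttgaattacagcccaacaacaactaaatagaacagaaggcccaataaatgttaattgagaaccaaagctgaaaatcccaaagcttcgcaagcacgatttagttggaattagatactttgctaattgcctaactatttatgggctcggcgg
The SOG1 motif occurs in 9.71% of the same window of 27443 genes, the E2F-type motif in 1.41% and the core AACGG in 20.6%. Among the 10 subunit genes, the SOG1 motif occurs in 0, the E2F-type motif in SMC6A and SNI1, and AACGG in NSE4B, ASAP1 and SNI1. A match of letters is a description of the window, and a lack of one says nothing of what binds there.

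The genes whose profile over the 8 libraries came nearest to that of NSE4A were not subunits of the complex. Likeness was the mean absolute difference in log2 CPM after each gene was centred on its own mean. The 5 nearest genes were PRR7 (AT5G02810), a pseudo-response regulator of the circadian clock, at 0.105 log2, UGT85A1 (AT1G22400), a UDP-glycosyltransferase, at 0.112, GLY3 (AT1G53580) at 0.119, AT5G43040 at 0.137 and AT2G30550 at 0.138. PRR7 averaged 160 CPM in nse4a-2_zeb, 92.7 in WT_zeb, 70.5 in nse4a-2_ctrl and 90.7 in WT_ctrl. The nearest subunit was SMC5 at 0.365, with 3483 of 19681 genes nearer, and the farthest was NSE3 at 0.596, with 15246 nearer.

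Across the complex as a whole, NSE4A was the single gene that passed in the planned comparisons. In nse4a-2 with zebularine against control, 1 of 9 subunits was called (higher), against a background of 14.7% of 19682 genes. Between nse4a-2 and WT in zebularine it was also 1 of 9 (higher), against 22% of genes. In WT with zebularine edgeR called 0 of 9, against 2.3% of genes, with 1 of 9 at an unadjusted p below 0.05 and 0 called by DESeq2 or limma. For the mutant against WT in control medium edgeR called 0 of 9, against 3.13% of genes, with 1 at an unadjusted p below 0.05 and 0 by DESeq2 or limma. For the difference of both zebularine responses edgeR called 0 of 9, against 0.772% of genes, with 1 at an unadjusted p below 0.05 and 0 by DESeq2 or limma. Each count is 0 or 1 of 9 genes, and nothing particular to the complex is read from it. The median log2 fold change of the 9 was 0.01 for zebularine in nse4a-2 (all genes −0.001), −0.00 in WT (−0.009), and for nse4a-2 against WT 0.17 without the drug (−0.008) and 0.04 with it (−0.022).

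**Figure D3:**
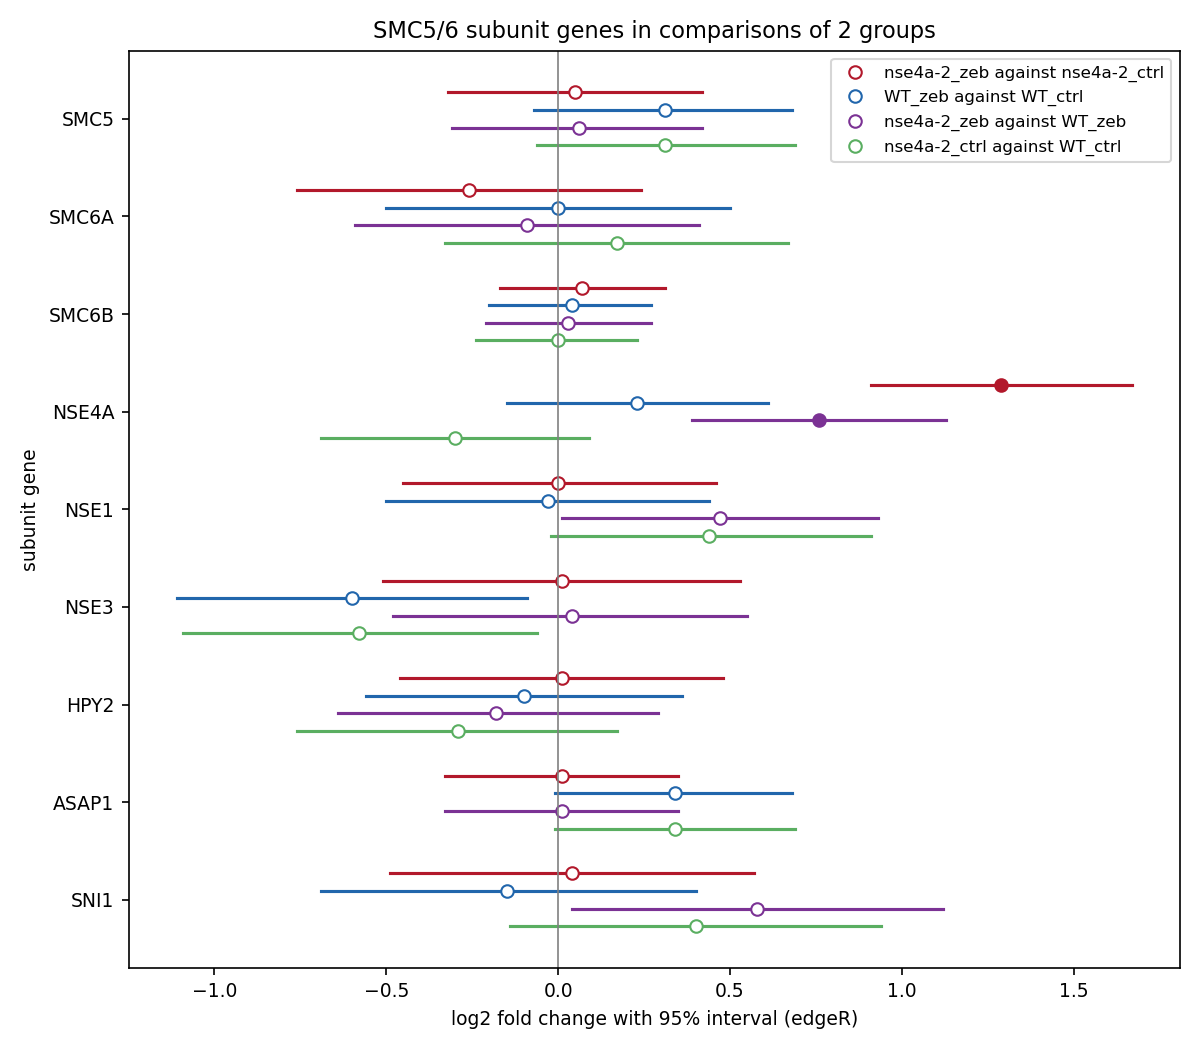
Log2 fold changes (x axis) of the 9 subunit genes in the 4 comparisons of 2 groups, with 95% intervals from edgeR; filled points passed an adjusted p of 0.05. The only filled points are those of NSE4A, at 1.29 for zebularine in nse4a-2 and 0.76 for nse4a-2 against WT in zebularine.

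The ATPases form the ring itself. SMC6B, the more abundant of the paralogous SMC6 genes, was the steadiest member of the complex, at 33.2 and 31.5 CPM in nse4a-2_zeb, 31.8 and 31.5 in WT_zeb, 29.8 and 31.8 in nse4a-2_ctrl, and 30.7 and 31 in WT_ctrl. The groups overlapped, except that both WT_ctrl values lay below those of both zebularine groups. Its log2 fold changes in the 4 comparisons of 2 groups lay between −0.00 and 0.07, and their 95% intervals between −0.24 and 0.31. SMC6A stood at 11.6 and 11.6 CPM in nse4a-2_zeb, 12.3 and 12.5 in WT_zeb, 10.5 and 17.3 in nse4a-2_ctrl, and 11.1 and 13.7 in WT_ctrl. Replicate 2 of nse4a-2_ctrl was the highest of the 8 libraries for SMC6A. The fold changes of SMC6A lay between −0.26 and 0.17 log2 and did not pass, and −0.26 for zebularine in the mutant turned to 0.14 without that library. SMC6B exceeded SMC6A per length in every library, by 1.58 to 2.47 times in FPKM. The transcripts of both share no 100-base window, and their longest identical stretch is 36 bases.

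The window upstream of SMC6A is shown because it holds the E2F-type motif, in capitals, which begins 13 bases before the annotated start. It lies at chr5:2422533-2422782 on the plus strand of TAIR10.1. The SMC6B window holds none of the 3 motifs.
SMC6A: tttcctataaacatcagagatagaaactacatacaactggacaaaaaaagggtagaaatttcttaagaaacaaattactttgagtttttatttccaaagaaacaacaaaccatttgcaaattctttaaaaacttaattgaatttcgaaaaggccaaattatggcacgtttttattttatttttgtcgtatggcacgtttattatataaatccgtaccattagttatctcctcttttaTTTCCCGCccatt

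SMC5, the partner of either SMC6 protein, stood at 44.9 and 40 CPM in nse4a-2_zeb, 38.3 and 43.4 in WT_zeb, 33.8 and 48.3 in nse4a-2_ctrl, and 31.4 and 34.7 in WT_ctrl. The nse4a-2_ctrl replicates spanned the values of all the other libraries but those of WT_ctrl replicate 1. The log2 fold changes of SMC5 were 0.05 to 0.31 in the 4 comparisons, with intervals from −0.32 to 0.69, and none passed. By count of reads SMC5 was the highest of the 9 genes, but its transcript is long, and per length it was level with HPY2.

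NSE1 and NSE3 bind the kleisin side by side. NSE1, a RING-domain protein that acts as a ubiquitin ligase subunit in human cells, stood at 7.87 and 8.82 CPM in nse4a-2_zeb, 6.96 and 5.03 in WT_zeb, 8.33 and 8.35 in nse4a-2_ctrl, and 6.55 and 5.7 in WT_ctrl. All 4 nse4a-2 libraries were above all 4 WT libraries. The genotype difference was 0.47 ± 0.21 log2 in zebularine (edgeR adjusted p = 0.129) and 0.44 ± 0.21 in control medium (edgeR adjusted p = 0.297), so neither passed alone. The value in zebularine was 0.73 without replicate 1 of WT_zeb and 0.28 without its replicate 2. Zebularine moved NSE1 by 0.00 log2 in nse4a-2, with an interval of −0.45 to 0.46, and by −0.03 in WT, with an interval of −0.50 to 0.44.

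SNI1, known in Arabidopsis as a repressor of immune gene expression as well as a subunit, had the same separation of the genotypes. It stood at 7.18 and 7.84 CPM in nse4a-2_zeb, 5.69 and 4.32 in WT_zeb, 8.71 and 5.94 in nse4a-2_ctrl, and 5.89 and 5.19 in WT_ctrl. The 4 nse4a-2 libraries were above the 4 WT libraries, though 5.94 CPM in replicate 2 of nse4a-2_ctrl and 5.89 CPM in replicate 1 of WT_ctrl almost met. The genotype difference of SNI1 was 0.58 ± 0.24 log2 in zebularine (edgeR adjusted p = 0.112) and 0.40 ± 0.24 in control medium (edgeR adjusted p = 0.427). The value in control medium was 0.12 without replicate 1 of nse4a-2_ctrl and 0.67 without its replicate 2. Since strand is not stated for the counts, reads of AT4G18460, on the opposite strand over 126 exonic bases of SNI1, cannot be told apart from those of SNI1 there. AT4G18460 itself fell with zebularine in nse4a-2 by 0.81 log2 (edgeR adjusted p = 0.0382). Between nse4a-2 and WT in zebularine it differed by −0.61 and did not pass (edgeR adjusted p = 0.0762). The part of such reads in the SNI1 values was not tested.

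After these values had been seen, the mean genotype difference over both media and the mean zebularine difference over both genotypes were tested as well. For nse4a-2 against WT, 1 of 9 subunits was called, NSE1, against 24.4% of genes, at 0.46 ± 0.15 log2 or 1.37-fold (edgeR adjusted p = 0.0468, higher in 4 of 4 mutant libraries). SNI1 had 0.49 ± 0.17 and did not pass (edgeR adjusted p = 0.0624). The NSE1 call was lost with DESeq2 (0.47 log2, adjusted p = 0.0857) and when any library but WT_zeb replicate 1 was left out (0.36 to 0.52 log2 in those 7 fits). For zebularine against control, 1 of 9 was called, NSE4A, against 16.7% of genes, at 0.76 ± 0.12 (edgeR adjusted p = 0.00364). That mean joins 1.29 log2 in nse4a-2 with 0.23 in WT, which did not pass, and it does not show a response in both genotypes. Counted by libraries, 2 of 9 subunits (NSE1 and SNI1) had no overlap between the 4 nse4a-2 and the 4 WT libraries, against 15.6% of genes, and 0 of 9 had none between the 4 zebularine and the 4 control libraries, against 9.3% of genes. These shares are near their backgrounds and are no result about the complex.

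SNI1 is shown with its upstream window, at chr4:10192659-10192908 on the plus strand of TAIR10.1, because it holds both the E2F-type motif on the reverse strand, which begins 67 bases before the annotated start, and the core AACGG on the reverse strand, which begins 18 bases before it. Both are in capitals.
SNI1: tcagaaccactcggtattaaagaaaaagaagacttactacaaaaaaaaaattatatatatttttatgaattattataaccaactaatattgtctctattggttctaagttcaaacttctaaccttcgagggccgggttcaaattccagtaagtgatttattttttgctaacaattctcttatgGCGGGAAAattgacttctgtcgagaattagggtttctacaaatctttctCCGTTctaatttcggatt

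**Figure D4:**
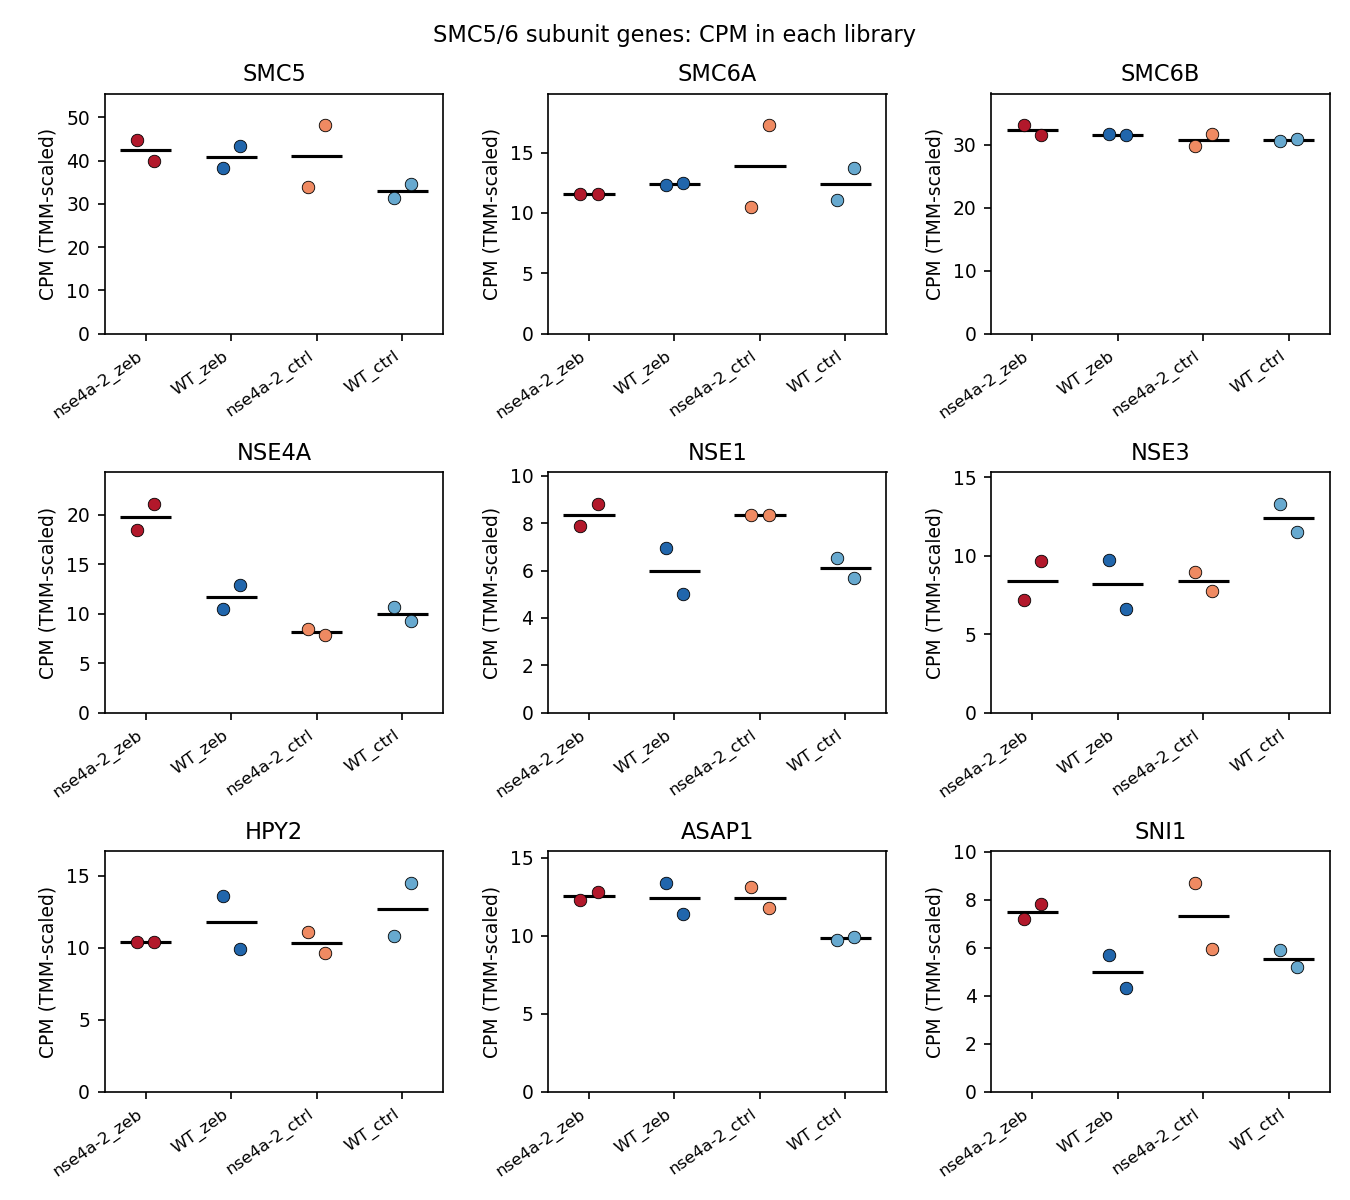
TMM-scaled CPM of each subunit gene (y axes from 0) in the 2 libraries of each group, with lines at group means. NSE4A is highest in nse4a-2_zeb, the nse4a-2 libraries of NSE1 and SNI1 lie above those of WT, NSE3 is highest in WT_ctrl, and SMC6B is level.

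NSE3, a MAGE-domain protein that partners NSE1, was highest in WT_ctrl. It stood at 7.18 and 9.63 CPM in nse4a-2_zeb, 9.75 and 6.62 in WT_zeb, 8.97 and 7.73 in nse4a-2_ctrl, and 13.3 and 11.5 in WT_ctrl. Both WT_ctrl libraries were above all 6 others, which overlapped among themselves. How many of all genes place a group apart from the 6 other libraries was not counted, so nothing is read from this placing. The log2 fold change was −0.60 ± 0.23 for zebularine in WT (edgeR adjusted p = 0.221) and −0.58 ± 0.23 for the mutant in control medium (edgeR adjusted p = 0.221). Neither passed, and both rest on the same WT_ctrl libraries. The value for zebularine in WT was −0.91 without replicate 1 of WT_zeb and −0.35 without its replicate 2. In the mutant, zebularine moved NSE3 by 0.01 log2, with an interval of −0.51 to 0.53, and the difference of the responses, 0.61 ± 0.32, did not pass (edgeR adjusted p = 0.444). The gene APRL4 (AT1G34780) spans 44 exonic bases of NSE3 on the opposite strand. APRL4 was higher in nse4a-2 than in WT in zebularine by 0.52 log2 (edgeR adjusted p = 0.0251), where NSE3 had 0.04.

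ASAP1, the partner of SNI1, was lowest in the same group. Its values were 12.3 and 12.8 CPM in nse4a-2_zeb, 13.4 and 11.4 in WT_zeb, 13.1 and 11.8 in nse4a-2_ctrl, and 9.75 and 9.93 in WT_ctrl. Both WT_ctrl libraries were below all 6 others, a placing whose share over all genes was not counted either. ASAP1 differed by 0.34 ± 0.15 log2 with zebularine in WT (edgeR adjusted p = 0.325) and by 0.34 ± 0.15 between nse4a-2 and WT in control medium (edgeR adjusted p = 0.28). Neither passed, and these values share the WT_ctrl libraries too.

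HPY2, the SUMO ligase that in Arabidopsis roots holds back the early onset of endoreduplication, varied as much between replicates as between groups. It stood at 10.4 and 10.4 CPM in nse4a-2_zeb, 13.6 and 9.9 in WT_zeb, 11.1 and 9.59 in nse4a-2_ctrl, and 10.8 and 14.5 in WT_ctrl. All 4 groups overlapped but for nse4a-2_zeb and WT_ctrl, which were 10.4 and 10.8 CPM at their nearest. Its fold changes lay between −0.29 and 0.01 log2, with intervals from −0.76 to 0.48. The neighbouring gene AT3G15140 spans 37 exonic bases of HPY2 on the same strand. AT3G15140 fell with zebularine in nse4a-2 by 0.80 log2 (edgeR adjusted p = 0.00438), where HPY2 had 0.01.

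Library by library, the summed level of the complex was highest in both nse4a-2_zeb libraries, and this separation was lost without NSE4A. The FPKM of the 9 genes together came to 82.4 and 87.2 in nse4a-2_zeb, 79.9 and 71.2 in WT_zeb, 74.9 and 76.1 in nse4a-2_ctrl, and 75.6 and 77.2 in WT_ctrl. Without NSE4A the sums were 69.1 and 71.9 FPKM in nse4a-2_zeb, 72.3 and 61.9 in WT_zeb, 68.9 and 70.4 in nse4a-2_ctrl, and 67.9 and 70.6 in WT_ctrl. The nse4a-2_zeb libraries were above all others in the first set of sums, and lay among them once NSE4A was left out. As NSE4A is part of the first sums and was itself highest in nse4a-2_zeb, this restates its own values. Nothing further about the complex is read from it.

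Genes that work beside the complex were read from fixed lists, whose counts stand beside the share of all genes called, and nothing particular to a list is read from them. Among the related SMC complexes cohesin and condensin, 2 of 17 genes rose and 2 fell in nse4a-2 with zebularine, against 14.7% of genes. The count of 4 was 1 without replicate 2 of nse4a-2_zeb, and 2 without replicate 1 of nse4a-2_ctrl, without either WT_ctrl library, with only the groups compared and with limma. The largest changes of this list were in kleisin genes: SYN2, a cohesin kleisin, averaged 26.1 ± 1.22 CPM in nse4a-2_zeb and 14.7 ± 1.35 in nse4a-2_ctrl (0.83 ± 0.13 log2, edgeR adjusted p = 0.00408), and SYN3, another, 6.98 ± 0.732 CPM in nse4a-2_zeb and 12.9 ± 0.367 in nse4a-2_ctrl (−0.89 ± 0.16, edgeR adjusted p = 0.00628; SD, n = 2 each). Between the genotypes in zebularine 2 of the 17 were higher and 3 lower, against 22% of genes, with SYN2 at 0.95 ± 0.13 and SYN3 at −1.18 ± 0.16 log2. That count of 5 was 3 or 2 without replicate 1 or 2 of nse4a-2_zeb, 2 without replicate 2 of WT_zeb and 2 with limma. Both genes were called in both comparisons under all 16 alternatives, except SYN3 with zebularine in nse4a-2 without replicate 2 of nse4a-2_zeb (−0.78 log2, edgeR adjusted p = 0.0741). In WT with zebularine and between genotypes in control medium edgeR, DESeq2 and limma called 0 of 17, with 0 and 2 at an unadjusted edgeR p below 0.05.

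In the SUMO pathway, in which HPY2 is a ligase, 14 genes were tested. In nse4a-2 with zebularine 0 rose and 1 fell, against 14.7% of genes. This was SUM5, a SUMO isoform gene, at 9.27 ± 0.266 CPM in nse4a-2_zeb and 21.1 ± 3.61 in nse4a-2_ctrl (−1.19 ± 0.16 log2, edgeR adjusted p = 0.00174; SD, n = 2 each). Against WT in zebularine 1 was higher, the SUMO protease gene OTS2 at 0.49 ± 0.15, and 1 lower, SUM5 at −1.06 ± 0.16, against 22% of genes. The OTS2 call was lost in 9 of 16 alternatives, among them DESeq2, limma and 5 of 8 left-out libraries (all but WT_zeb replicate 1 and both of nse4a-2_ctrl). No gene of this list was called in WT with zebularine or between the genotypes in control medium by edgeR, DESeq2 or limma, with 0 and 0 at an unadjusted edgeR p below 0.05.

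Of 24 genes of recombination and joint-molecule processing, the pathway in which SMC5/6 acts, 4 rose and 2 fell in nse4a-2 with zebularine, against 14.7% of genes. BRCA1 (1.17 ± 0.13 log2) and COM1 (0.86 ± 0.13) were among those that rose, and the recombination mediator gene BRCA2A fell by 0.88 ± 0.13. In WT with zebularine 1 of the 24 rose, BRCA1, against 2.3% of genes, and that call was lost without replicate 1 of WT_ctrl (0.87 log2, edgeR adjusted p = 0.115). In control medium 1 was higher in nse4a-2 than in WT, COM1 at 0.71 ± 0.14, against 3.13% of genes. The COM1 call there was lost in 7 of 16 alternatives, at 0.71 to 0.73 log2: with only the groups compared, and when any library outside WT_zeb was left out. In zebularine 4 were higher and 2 lower in nse4a-2 than in WT, against 22% of genes. A list of 5 genes held those in which mutations are known to suppress sni1 in Arabidopsis, BRCA2A, RAD17 and ATR among them. In nse4a-2 with zebularine 1 of the 5 rose and 1 fell (RAD17 and BRCA2A), against 14.7% of genes. In zebularine the same genes were 1 higher and 1 lower than in WT, against 22% of genes. In WT with zebularine 1 of the 5 rose, against 2.3% of genes. In control medium 1 was higher in nse4a-2 than in WT, against 3.13% of genes, and both times this was RAD17. The checkpoint gene RAD17 was higher in all 4 comparisons of 2 groups: by 0.90 ± 0.15 log2 with zebularine in nse4a-2, 0.78 ± 0.16 in WT, 1.30 ± 0.15 between the genotypes in zebularine and 1.18 ± 0.16 in control medium. RAD17 averaged 35.6 ± 3.6 CPM in nse4a-2_zeb, 14.5 ± 1.14 in WT_zeb, 19.1 ± 0.287 in nse4a-2_ctrl and 8.45 ± 1.28 in WT_ctrl (SD, n = 2 each). The RAD17 call for zebularine in WT (edgeR adjusted p = 0.0354) was lost in 9 of 16 alternatives, at 0.64 to 0.86 log2: with total counts, with only the groups compared, with both limma fits and without either WT_zeb library, either nse4a-2_ctrl library or replicate 1 of WT_ctrl. Those in nse4a-2 with zebularine and in control medium were each lost in 1, without replicate 2 of nse4a-2_zeb (0.79 log2, edgeR adjusted p = 0.0523) and without replicate 1 of WT_ctrl (1.05 log2, edgeR adjusted p = 0.053). The 8 damage signalling genes held 1 rise with zebularine in nse4a-2 and 1 in WT, and 1 gene higher in nse4a-2 in control medium, which was RAD17 each time, and in zebularine 1 higher (RAD17) and 1 lower (RAD9, −0.80 ± 0.21). Of all genes, 14.7, 2.3, 3.13 and 22% were called in these comparisons. The lists overlap, as RAD17 is in the damage signalling and sni1 suppressor lists and BRCA2A in the recombination and sni1 suppressor lists. Their calls in these lists are the same calls. The RAD9 call was lost without replicate 2 of nse4a-2_zeb (−0.61), without replicate 1 of WT_zeb (−0.71), with DESeq2 and with only the groups compared. For the difference of both zebularine responses edgeR called 0 genes of the cohesin and condensin, SUMO, recombination, sni1 suppressor and damage signalling lists, with 4, 2, 4, 1 and 1 at an unadjusted p below 0.05, and DESeq2 called 0, 1, 0, 0 and 0.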

How the data were processed

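Poly(A) RNA of dissected shoot apices was read as 100-base single ends, per the labels' protocols. Raw read counts per gene, FPKM, log2 fold changes and adjusted p-values were made by the authors and deposited in 1 table, whose headers name biological replicates R1 and R2 in each of the groups, although 1 sample per group is listed. Per the submitters' processing notes the build was TAIR10 and the tools included TopHat2 and Cuffdiff. Counting tool, annotation and strand setting are not given in the sources used here. 8 columns of means and SDs were not used. Of 32399 genes, 43 had no values and 8190 had 0 counts everywhere.

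Counts were filtered with filterByExpr (19682 genes left), scaled by TMM (factors 0.957 to 1.03) and fitted in 1 model of 4 groups with edgeR 4.0.16 (R 4.3.3). A gene was called where the quasi-likelihood F test of edgeR gave a p, adjusted by Benjamini and Hochberg's method across the 19682 genes, under 0.05. An SE is the log2 fold change over the square root of F. The common coefficient of biological variation was 13.4%. The steps were tested on simulated data. Alternatives used DESeq2 1.42.0 and limma 3.58.1 on log2(FPKM + 1) or log2(FPKM + 0.1). Limits where 0 was counted (3 counts, 95% confidence) and intervals of counts cover counting error only.

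The members, lists and tests were chosen with earlier results of these data known. Named genes are all 10 members, up to 4 called genes of a list per comparison with the largest change, and the 5 genes nearest NSE4A. Promoter windows and gene models came from RefSeq TAIR10.1 by gene code (31892 genes of the table matched). Protein sequences were not used here. One gene of the recombination list is counted but not reported here by name. Deviations from group means correlated at r of −0.0749 to 0.188 between same-numbered libraries of different groups, so the numbers do not pair the libraries.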

Additional observations from a re-analysis of the deposited data

How the results depend on the processing

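NSE4A with zebularine in nse4a-2 was called under all 16 alternatives, at 1.16 to 1.38 log2 (1.19 to 1.38 when a library was left out). For nse4a-2 against WT in zebularine it had 0.62 to 0.92 log2 when each library was left out, and the call, with it the count of 1 subunit called (0 to 1), was lost without nse4a-2_zeb replicate 2 (0.66) and without WT_zeb replicate 1 (0.62). The difference of responses for NSE4A was 0.92 to 1.22 over left-out libraries and passed, with 1 subunit called, only with no low-count filter (1.05, edgeR adjusted p = 0.0348). In the mean over both media, added after seeing the data, NSE1 was lost with DESeq2 (0.47, adjusted p = 0.0857), with total counts (0.45, edgeR adjusted p = 0.07) and in 7 of 8 fits with a library left out (0.36 to 0.52), and kept without WT_zeb replicate 1 (0.58); over the 8 fits 0 or 1 subunits were called. That count was 0 with DESeq2 and with total counts, and 2 with no low-count filter and with the replicate block, both of which add SNI1 at 0.50 (edgeR adjusted p = 0.0437). In the same mean, SNI1 passed without nse4a-2_ctrl replicate 2 (0.63, edgeR adjusted p = 0.033) and SMC5 without nse4a-2_ctrl replicate 1 (0.31, edgeR adjusted p = 0.0395). The replicate block changed no other count of subunits called. Without nse4a-2_ctrl replicate 2, SMC6A turned to 0.14 (range −0.58 to 0.14) with zebularine in nse4a-2, and in the difference of responses SMC6A turned to 0.14 (−0.59 to 0.14) and SMC5 to 0.01 (−0.50 to 0.01). The cause was not tested. Where a library was left out, the lone library of its group was taken to vary like the other groups. Uncalled values under 0.25 log2 were not followed singly, a limit set after seeing the data. These 36 values changed sign in 75 of 560 alternatives, 55 of them with a library left out. Among uncalled values, a left-out library also gave HPY2 −0.47 to −0.05 and SMC5 0.05 to 0.57 between genotypes in control medium. The ratio of NSE4A to the summed others gave 1.28 and 0.69 log2 in place of 1.25 and 0.72. Counts of called genes in the other lists stayed within 1.5 times in 882 of 1090 alternatives, and 171 of the other 208 were lower. With 79 to 793 counts per library, SEs of single subunits averaged 0.11 (SMC6B) to 0.24 log2 (SNI1), which limits what could be called.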
